A study of Mus musculus with 4 samples.

Results

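Myc and its partners form a network of transcription factors that share a basic helix-loop-helix leucine zipper. The 8 genes described here are Myc, Mycn, Max, Mxd1, Mxd3, Mxd4, Mxi1 and Mnt, and they were taken by name: every probe set that the platform's annotation assigns to exactly 1 of these symbols was a member. This gave 19 of the 34945 probe sets that name 1 gene, and 8 of 18193 genes. Of the 19 probe sets, 18 reached the level filter, an intensity of 20.9 (the median of all values) on at least 1 of the 4 arrays, and all 8 genes did so by their brightest probe set. The dimmest probe set of Mycn, 1417155_at, lay below it on every array.

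The study measured mouse intestinal organoids, epithelial cultures in Matrigel, that carried floxed Apc alleles (Apc fl/fl) on all 4 arrays. The Apc protein helps to target beta-catenin for destruction. The groups were organoids given 4-hydroxytamoxifen (4OHT) for 24 h to recombine Apc and collected at day 6, untreated organoids at day 6, 4OHT organoids at day 4 and untreated organoids at day 4, with 1 array in each. The submitters describe the 4OHT organoids as deficient for Apc and the untreated ones as normal. The sources used here do not name the recombinase or its promoter, and no array of 4OHT-treated organoids without the floxed allele is among the 4. Of the 4 probe sets for Apc, the brightest had intensities of 169.6 in 4OHT and 99.6 in untreated organoids at day 6, and 57.7 in 4OHT and 27.1 in untreated organoids at day 4. No source used here says whether any of them lies in the recombined exons, so the level of Apc does not check the labels.

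Max dimerises with each of the other proteins of the network, and the dimers bind the E-box sequence CACGTG. Dimers of Myc or Mycn with Max activate transcription, while dimers of Max with an Mxd protein, Mxi1 or Mnt recruit Sin3 histone deacetylase complexes and repress it. In the intestine Myc is a classical target of beta-catenin and TCF in crypt cells, and Mxd genes are known from differentiating cells.

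E-box sequences also stood near the start sites of members. The letters CACGTG, which read the same on both strands, were searched in promoters from RefSeq (GRCm38.p6, 250 bases before to 50 after the start site that each entry uses). They were found for 3 of the 7 members that have an entry there, against 8.09% of all 27025 genes with an entry and 7.15% of all 32851 promoters, and are shown because they are the letters that the network's own dimers bind. Each line below gives 46 bases 5′ to 3′ on the gene's strand with the E-box in capitals. The windows lie at chr12:76962226-76962271 for Max (minus strand), chr11:74830781-74830826 for Mnt (plus strand) and chr5:34187904-34187949 for Mxd4 (minus strand).
Max: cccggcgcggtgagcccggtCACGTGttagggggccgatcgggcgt
Mnt: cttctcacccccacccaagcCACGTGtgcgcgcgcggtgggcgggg
Mxd4: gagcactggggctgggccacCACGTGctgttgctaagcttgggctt
The first base of the E-box stands 3 bases before the start site of the promoter entry in Max, 123 before it in Mnt and 219 before it in Mxd4. A gene can have several start sites: measured to the outermost annotated base of the gene in RefSeq, the E-box lies 72 bases inside Max, 5 bases before Mnt and 219 bases before Mxd4. No match to CTTTGAT, a motif of TCF factors searched on both strands, was found for these 7 members, and 3.73% of all promoters hold it. Myc has no entry in the promoter table. A match describes the letters and does not show binding.

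The arrays hold linear probe-set intensities, and differences are given on the log2(intensity + 16) scale, which understates changes of dim genes. The median intensity was 19.5 and 19.3 at day 6 (4OHT and untreated) and 21.9 and 22.0 at day 4, and the central 90% of log2 values spread wider at day 6 (6.73 and 6.89 on the log2 scale) than at day 4 (5.90 and 5.77). The sources used here do not say how the arrays were scaled to each other. All 9 markers of intestinal epithelium (such as Epcam and Vil1) passed the level filter, with summed intensities of 15440 to 27972, while those of 7 fibroblast, 6 immune and 4 endothelial markers were 68.7 to 146, 86.5 to 149 and 44.1 to 87.0. With 1 array per group there is no spread between replicates. The gap between the 2 brightest probe sets of the same gene shows how far probe sets on the same arrays differ. It holds no spread between cultures and cannot stand in for it. Its median over 5798 genes was 0.23 and 0.30 for the 4OHT difference at day 6 and day 4. For the day difference it was 0.56 and 0.65 in 4OHT and untreated organoids. In organoids as in other mixed samples, fewer cells of a type and less RNA per cell cannot be told apart.

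Myc, the founding oncoprotein of the network, was read by 1 probe set, 1424942_a_at. Its intensity was 419 in 4OHT and 355 in untreated organoids at day 6, and 81.2 in 4OHT and 122 in untreated organoids at day 4. Both day 6 arrays therefore lay above both day 4 arrays, and the 4OHT array was the higher of its pair at day 6 and the lower at day 4. The 4OHT difference was 0.23 at day 6 and -0.51 at day 4. Over both days it was -0.14 ± 0.23 (SE; limma with 4OHT and day as additive terms, adjusted p = 0.876), so no 4OHT effect on Myc passed the test.

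By day, Myc was 4.48-fold higher at day 6 than at day 4 in 4OHT organoids and 2.68-fold higher in untreated organoids. It rose by 1.79 ± 0.23 (SE) over both arms (limma, adjusted p = 1.16e-05). Such calls were common: 35.1% of the 13192 genes tested rose by day and 18.8% fell, and 4.27% of genes had a day effect at least as high as that of Myc. With 1 array a group, the day test rests on how far the 2 arms differ, pooled over genes. It holds no spread between cultures. After quantile normalization, which gives the 4 arrays one distribution, the day difference of Myc was 1.73 in 4OHT and 0.74 in untreated organoids and the effect over both arms was 1.24 (adjusted p = 0.00376), with 6.16% of genes at or above it. The 3' minus 5' difference of the Actb control probe sets also changed with day, by -1.56 in 4OHT and -1.24 in untreated organoids, and the spiked hybridization controls differed by -1.07 and -2.26 on the log2 scale. Their part in the day effect was not tested.

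**Figure D1:**
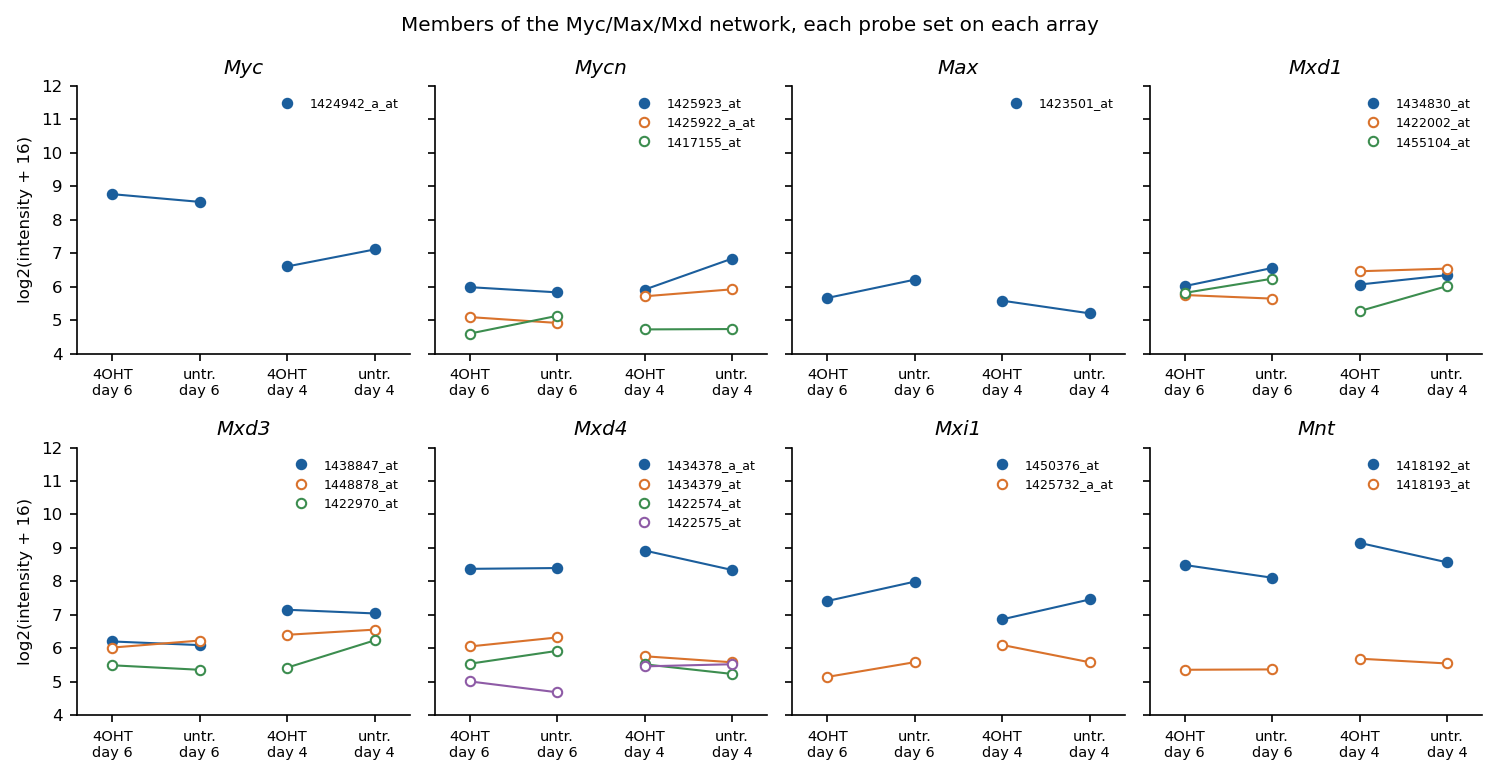
Each panel shows 1 gene, with log2(intensity + 16) on the y axis and the 4 arrays (4OHT and untreated at day 6, 4OHT and untreated at day 4) on the x axis. Each point is 1 probe set on 1 array, lines join the arrays of a day, and filled points are the brightest probe set; Myc has both day 6 arrays above both day 4 arrays, at 419 and 355 against 81.2 and 122.

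Mycn encodes a close relative of Myc that is best known from embryonic and neural cells. Its brightest probe set, 1425923_at, had intensities of 47.3 in 4OHT and 40.9 in untreated organoids at day 6, and 44.2 in 4OHT and 98.3 in untreated organoids at day 4. The untreated array of day 4 stood above the other 3, which lay close together. The 4OHT difference was 0.16 at day 6 and -0.93 at day 4, and -0.39 ± 0.25 (SE) over both days (limma, adjusted p = 0.550). A second probe set, 1425922_a_at, was dimmer, at 18.04 and 14.2 at day 6 and 36.4 and 44.5 at day 4 (4OHT and untreated), with 4OHT differences of 0.17 and -0.21. It lay lower at day 6 in both arms, by 0.62 in 4OHT and by 1.01 in untreated organoids. The brightest differed by 0.07 in 4OHT and by -1.01 in untreated organoids. The day effect of 1425922_a_at passed the test (-0.81 ± 0.21, SE, limma over all probe sets, adjusted p = 0.00775), whereas that of the brightest did not (-0.47 ± 0.25, adjusted p = 0.117).

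Max, the common partner, was read by 1 dim probe set, 1423501_at. Its intensity was 34.6 in 4OHT and 57.9 in untreated organoids at day 6, and 31.9 in 4OHT and 20.8 in untreated organoids at day 4. The 2 pairs ran in opposite directions: the 4OHT difference was -0.55 at day 6 and 0.38 at day 4. Over both days it was -0.08 ± 0.24 (SE; limma, adjusted p = 0.939), and 0.01 after quantile normalization. Max was 2.01-fold higher at day 6 than at day 4 in untreated organoids and differed by 0.08 in 4OHT organoids, and its day effect of 0.54 ± 0.24 (SE) did not pass (limma, adjusted p = 0.0633).

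By the brightest probe sets Mxi1, a Max partner that antagonises Myc, had the lowest 4OHT effect of the 8 genes, and none of these effects passed the test. Its brightest probe set, 1450376_at, had intensities of 154 in 4OHT and 238 in untreated organoids at day 6, and 100.2 in 4OHT and 159 in untreated organoids at day 4. The 4OHT array was the lower of each pair (day 6, -0.58; day 4, -0.59). The effect of -0.59 ± 0.21 (SE) did not pass after adjustment (limma, adjusted p = 0.174), and 4.86% of all genes had one as low or lower. The other probe set, 1425732_a_at, did not follow it, with 19.2 in 4OHT and 31.8 in untreated organoids at day 6, and 52.4 in 4OHT and 31.8 in untreated organoids at day 4. Its 4OHT differences were -0.44 and 0.52. With the probe sets of each gene averaged, the effect was -0.27 for Mxi1 and -0.33 for Mxd1.

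Mnt encodes a widely expressed Max partner that competes with Myc. Its brightest probe set, 1418192_at, had intensities of 343 in 4OHT and 259 in untreated organoids at day 6, and 551 in 4OHT and 363 in untreated organoids at day 4. The 4OHT array was the higher of each pair (day 6, 0.38; day 4, 0.58). The effect of 0.48 ± 0.21 (SE) did not pass after adjustment (limma, adjusted p = 0.308), and 5.65% of all genes had one at least as high. The dim second probe set, 1418193_at, had 24.9 in 4OHT and 25.2 in untreated organoids at day 6, and 35.4 in 4OHT and 30.6 in untreated organoids at day 4, with 4OHT differences of -0.01 and 0.14.

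Mxd1 encodes the first described Max partner of the repressor branch and is known from differentiating cells. Its brightest probe set, 1434830_at, had intensities of 48.7 in 4OHT and 78.2 in untreated organoids at day 6, and 50.9 in 4OHT and 65.2 in untreated organoids at day 4. A second, 1455104_at, had 40.2 and 59.5 at day 6 and 22.5 and 48.7 at day 4 (4OHT and untreated). On both of these the 4OHT array was the lower of each pair, by 0.54 and 0.42 at day 6 and by 0.28 and 0.75 at day 4, whereas the remaining probe set, 1422002_at, differed by 0.11 and -0.08. The effect of the brightest was -0.41 ± 0.21 (SE; limma, adjusted p = 0.415) and that of 1455104_at -0.59 ± 0.21 (SE; limma over all probe sets, adjusted p = 0.261).

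Mxd3, a repressor partner known from dividing cells, had intensities of 57.5 in 4OHT and 52.2 in untreated organoids at day 6, and 126 in 4OHT and 115 in untreated organoids at day 4 on its brightest probe set, 1438847_at. The arrays of a day lay close together, with a 4OHT difference of 0.11 on each day, and both day 4 arrays lay above both day 6 arrays. A second probe set, 1448878_at, differed with 4OHT by -0.21 and -0.15. The third, 1422970_at, had 4OHT differences of 0.13 at day 6 and, on the day 4 arrays, -0.81, where it had 26.7 in 4OHT and 59.1 in untreated organoids.

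Mxd4, another repressor partner, had the most probe sets. The brightest, 1434378_a_at, had intensities of 315 in 4OHT and 321 in untreated organoids at day 6, and 468 in 4OHT and 308 in untreated organoids at day 4. Only the 4OHT array of day 4 stood apart. The 4OHT difference was -0.02 at day 6 and 0.58 at day 4, and 0.28 ± 0.22 (SE) over both days (limma, adjusted p = 0.664). The other 3 were dim, at intensities of 9.63 to 63.8, and none kept its direction: 4OHT differences at day 6 and day 4 were -0.27 and 0.18 for 1434379_at, -0.39 and 0.29 for 1422574_at, and 0.33 and -0.06 for 1422575_at.

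Over the network, no 4OHT effect was called. None of the 8 genes passed limma's test over both days (3.22% of all genes did, 0.97% up and 2.25% down, and 1.8%, 0.379% and 1.42% after quantile normalization, where none of the 8 passed either), while Mxi1 and Mnt had an unadjusted p under 0.05, and none of the 18 probe sets passed in the fit over all probe sets (1.31% of 23044 did, 0.334% up and 0.981% down). No member reached 2-fold with 4OHT at day 6 (3.85% of genes did) or at day 4 (2.22%). At 1.5-fold, Mycn and Mxi1 were lower at day 4 (13.5% of genes passed either way). The 4OHT effect differed 2-fold between the days for Mycn alone among the brightest probe sets (4.03% of genes). Of the 18 probe sets, 12 had 4OHT differences of opposite sign on the 2 days, against 43.0% of all probe sets, 4 were lower on both days and 2 were higher. The median over the 8 genes was 0.04 at day 6 and -0.09 at day 4, beside -0.0044 and 0.06 over all genes. With 1 residual degree of freedom and 1 array a group, the test measures how far the 2 days differ, not the spread between cultures, and no source says that each array is a culture of its own.

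**Figure D2:**
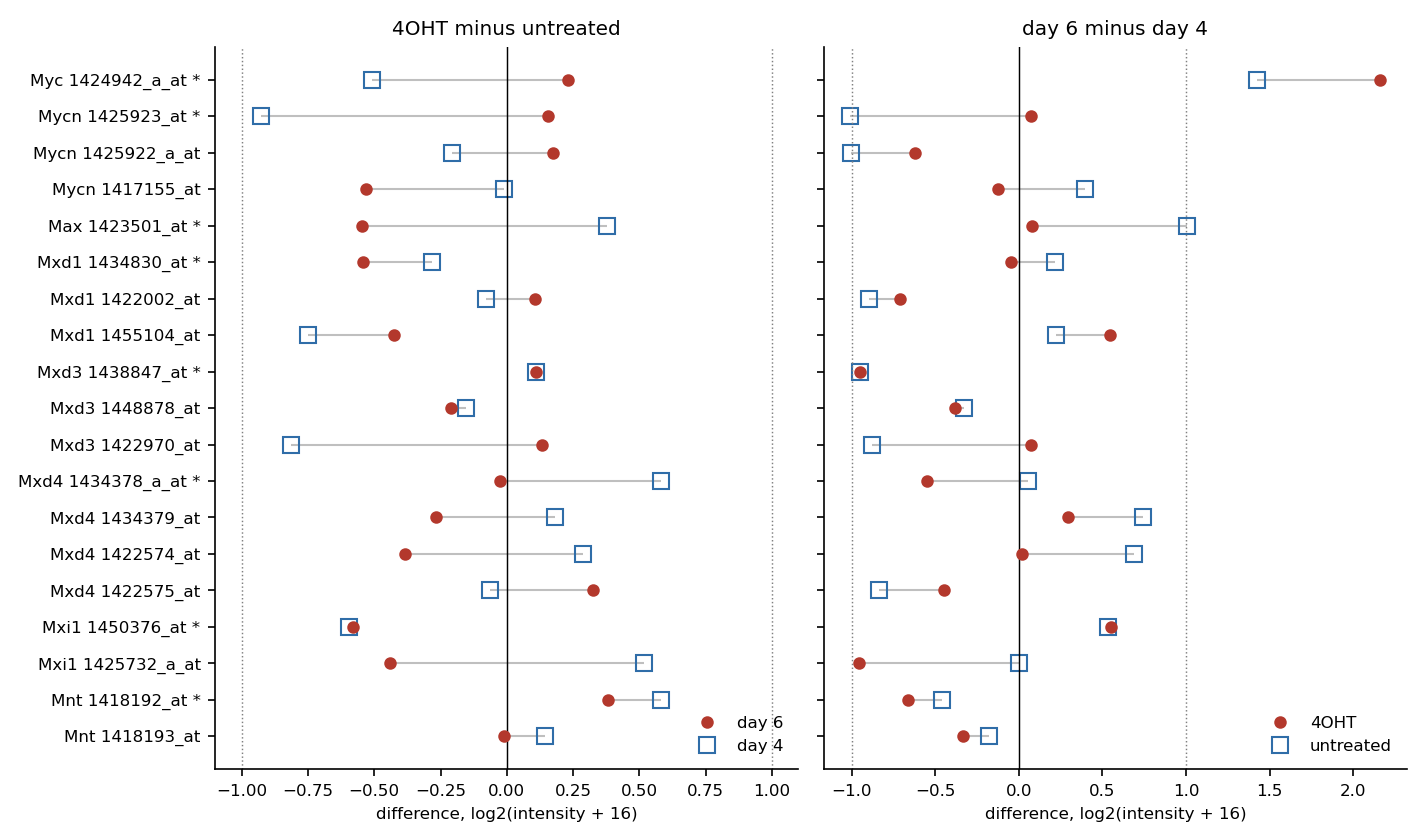
Differences on the log2(intensity + 16) scale for each probe set (rows; the brightest of a gene has an asterisk), with 4OHT minus untreated on the left (filled circles day 6, open squares day 4) and day 6 minus day 4 on the right (filled circles 4OHT, open squares untreated). Dotted lines mark 2-fold; no 4OHT difference reaches it, and Myc has the highest day difference in both arms, 2.16 and 1.42.

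The comparison of day 6 with day 4 gave more calls, on a background in which 53.9% of all genes were called. Besides Myc, Mxi1 rose by 0.54 ± 0.21 (SE; limma, adjusted p = 0.0379) with values as deposited, but its effect was -0.03 after quantile normalization, where 44.2% of all genes were called. Mxd3 fell by 0.95 ± 0.21 (adjusted p = 0.00136) and Mnt fell by 0.56 ± 0.21 (adjusted p = 0.0337). After quantile normalization the effects were -1.38 for Mxd3 and -1.14 for Mnt, and Mxd4 was called as well (-0.82, adjusted p = 0.0108, against -0.25 as deposited). After median centring, which gives the arrays one median, Mnt did not pass (-0.46, limma, adjusted p = 0.0767). Max rose there (0.65, limma, adjusted p = 0.0193), where 5175 of 13192 genes rose and 1756 fell. Over 10 settings of the fit Myc and Mxd3 passed in 10, and Mxi1 and Mnt in 7 each. All but the setting with averaged probe sets read 1 probe set a gene. Settings that change only which genes are tested repeat the same effects, so they are not separate checks. In the fit over all probe sets, the dimmer ones of Mxd3 had day effects of -0.35 (1448878_at) and -0.40 (1422970_at). The dimmer one of Mnt had -0.25 and that of Mxi1 -0.48, opposite to its brightest, and none of these passed. The median day effect of all genes was 0.10 as deposited and -0.16 after quantile normalization. Relative to it, Myc stood at 1.69 and 1.40, Mxd3 at -1.05 and -1.22, Mnt at -0.66 and -0.98, and Mxi1 at 0.44 and 0.14 under the deposited and the quantile scaling.

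Within each arm, the day difference of Mxd3 was -0.95 in both 4OHT and untreated organoids, that of Mnt -0.66 in 4OHT and -0.46 in untreated organoids, and that of Mxi1 0.55 and 0.53. At 2-fold, only Myc passed in 4OHT organoids (19.1% of all genes did; at 1.5-fold Mxd3 and Mnt passed too, both lower at day 6, beside 43.2% of genes), and Myc, Mycn and Max passed in untreated organoids (29.4% of all genes did), with Mycn lower at day 6. After quantile normalization the members past 2-fold were Myc, Mxd3, Mxd4 and Mnt in 4OHT organoids and Mycn, Mxd3 and Mnt in untreated organoids, so that 1 was shared with the deposited scaling in each arm. Probe sets of a gene did not move as one: over all probe sets 2 of 18 rose by day (34.5% of all did) and 5 fell (15.6%; 50.1% either way), and of the 3 probe sets of Mxd1 only 1422002_at fell (-0.80 ± 0.20, SE, limma over all probe sets, adjusted p = 0.00708). Among the 5 that fell, 1425922_a_at of Mycn and 1422575_at of Mxd4 reached the level filter on the day 4 arrays only.

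**Figure D3:**
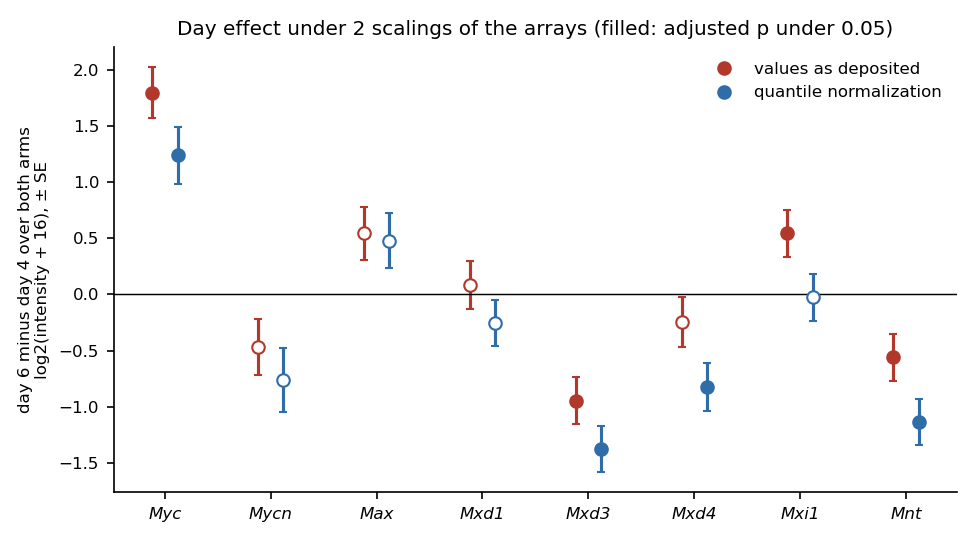
Day effect (day 6 minus day 4 over both arms, log2(intensity + 16), with its SE from limma) of the brightest probe set of each gene on the values as deposited (red) and after quantile normalization (blue), with filled points past an adjusted p of 0.05. Myc is above 0 under both (1.79 and 1.24), Mxd3 and Mnt are below 0 under both, and Mxi1 is at 0.54 and -0.03.

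The genes whose pattern over the 4 arrays lay nearest to that of Myc were Mbnl2, a regulator of splicing, Krit1, a vascular adaptor protein, and Tfdp1, the dimer partner of E2F factors. Nearness was the Euclidean distance of log2 values centred on each gene's mean, over 4 arrays and 12411 genes, and was 0.07, 0.10 and 0.10, against a median of 1.77. Tfdp1 had intensities of 456 in 4OHT and 406 in untreated organoids at day 6, and 100.1 in 4OHT and 138.5 in untreated organoids at day 4. Mbnl2 had 606 and 539 at day 6 and 128 and 195 at day 4 (4OHT and untreated). With 4 arrays and a day difference common to many genes, such neighbours are a description only.

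Genes known to be repressed by Myc were the pathway list with the most members that fell with 4OHT. The list was chosen with earlier results of these data known, so its comparison with all genes is a description only. Of the 6 tested, 3 fell, none rose and 3 did not pass (2.25% of all genes fell), and their median was -0.81, beside 0.02 over all genes. Ndrg1, a stress-responsive gene linked to differentiation, had intensities of 528 in 4OHT and 2102 in untreated organoids at day 6, and 720 in 4OHT and 1573 in untreated organoids at day 4, and fell by 1.54 ± 0.23 (SE; limma, adjusted p = 0.00120). Its relative Ndrg2 had 23.8 and 79.3 at day 6 and 24.3 and 70.4 at day 4 (4OHT and untreated) and fell by 1.18 ± 0.21 (adjusted p = 0.00393). The cell cycle inhibitor gene Cdkn2b had 156 and 471 at day 6 and 186 and 306 at day 4 and fell by 1.09 ± 0.23 (adjusted p = 0.0144). On these 3 genes both 4OHT arrays lay below both untreated arrays. With a pseudocount of 64, or with no level filter, limma called no gene of the whole table for 4OHT, these 3 included. The probe set of Ndrg1 is of the _x_at type, which can share sequence with other transcripts. So are those of Cdk4, Rbbp4 and Rbbp7, whose 4OHT values are given below. Cdkn1a, which encodes the inhibitor p21, differed by -0.55 at day 6 and -0.19 at day 4 without passing (adjusted p = 0.486). Named to complete the list, Gadd45a (-0.54 over both days) and Cdkn1c (0.18) did not pass either.

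On the same arrays 7 of 11 enterocyte markers fell with 4OHT, none rose and 4 did not pass, and of the 9 markers of intestinal epithelium Krt20, a keratin of differentiated cells, fell (-1.41, adjusted p = 0.00113). The summed intensity of the enterocyte markers was 5858 in 4OHT and 12439 in untreated organoids at day 6, and 1378 in 4OHT and 3666 in untreated organoids at day 4. The 3' minus 5' difference of Actb was 0.62 larger with 4OHT at day 6 and 0.94 larger at day 4. What share either has in the lower values of Ndrg1, Ndrg2 and Cdkn2b was not tested.

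Of 24 genes known to be activated by Myc, 1 fell with 4OHT, none rose and 23 did not pass (2.25% of all genes fell and 0.97% rose). Their median was 0.16, beside 0.02 over all genes. The one called was Ldha, the lactate dehydrogenase gene, which is also known as a hypoxia target. It had intensities of 1159 in 4OHT and 2550 in untreated organoids at day 6, and 1242 in 4OHT and 2032 in untreated organoids at day 4, and fell by 0.91 ± 0.21 (SE; limma, adjusted p = 0.0259). After quantile normalization no gene of this list passed. The cyclin-dependent kinase gene Cdk4 had 4OHT differences of 0.43 at day 6 and 0.76 at day 4 (adjusted p = 0.176), the translation factor gene Eif4a1 of 0.51 and 0.46 (adjusted p = 0.299), and the arginine methyltransferase gene Prmt1 of 0.31 and 0.65 (adjusted p = 0.319), none of them past the test. CACGTG was found in promoters of 8 of the 20 activated genes that have an entry, Cdk4, Nme1, Eif4e, Eif4a1, Hspd1, Pes1, Ldha and Prmt1, in none of 4 repressed genes with an entry, and in 8.09% of 27025 genes.

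By day, 12 of the 24 activated genes rose and 3 fell (35.1% and 18.8% of all genes), with a median of 0.54 beside 0.10 over all genes. After quantile normalization 4 rose and 4 fell (20.3% and 24.0% of all genes), with a median of 0.04 beside -0.16. Tfrc, the transferrin receptor gene, rose by 1.85 on the deposited scale and by 1.27 after quantile normalization, and the chaperonin gene Hspd1 by 1.62 and 1.09. These 2 were named after their values were seen. By the same test 8 of 9 markers of cycling cells and 10 of 11 enterocyte markers rose, with medians of 1.39 and 1.61. After quantile normalization 5 of the 9 cycling markers rose and 1 fell (median 0.81), and 7 of the 11 enterocyte markers rose (median 1.09). Their part in the day effect of the activated genes was not tested.

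**Figure D4:**
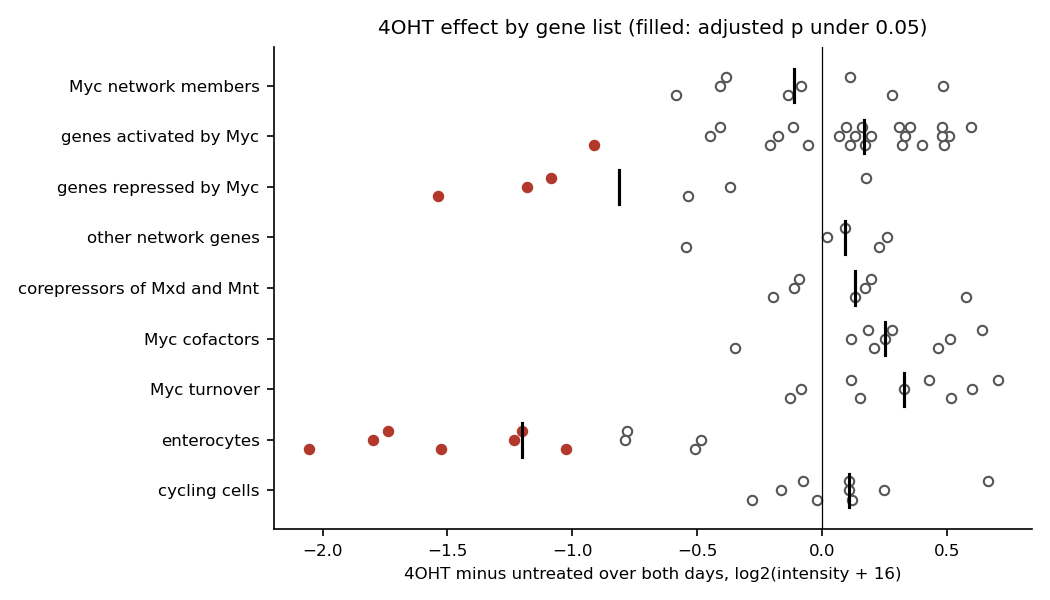
4OHT minus untreated over both days (limma, log2(intensity + 16)) for the 8 members and for each tested gene of the 6 pathway lists and of the enterocyte and cycling cell markers; each point is 1 gene, filled points passed an adjusted p of 0.05 and black bars are medians. No member is filled, and the filled points lie below 0, in the lists of Myc-repressed genes (3 of 6), Myc-activated genes (1 of 24) and enterocyte markers (7 of 11).

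The wider network and its cofactors held no 4OHT call, where 3.22% of all genes were called. None of 5 further network genes passed the test (medians of 0.36 at day 6 and -0.17 at day 4, beside -0.0044 and 0.06 over all genes). Mlx, which takes the place of Max for a parallel branch, had 4OHT differences of -0.58 at day 6 and -0.51 at day 4 (limma, adjusted p = 0.220). Its partner Mlxipl, the carbohydrate-responsive factor, was higher by 0.40 and 0.05 (adjusted p = 0.728), and Mga, a large Max partner, by 0.36 and 0.16 (adjusted p = 0.667). All 5, with Mycl and Mlxip, rose by day, at a median of 1.36 as deposited and 0.81 after quantile normalization. Over all genes 35.1% rose as deposited and 20.3% after quantile normalization, with medians of 0.10 and -0.16.

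None of 7 subunits of Sin3 and related corepressor complexes passed with 4OHT (3.22% of all genes did). The histone-binding subunit gene Rbbp4 was higher by 0.48 at day 6 and 0.67 at day 4 (limma, adjusted p = 0.191), Rbbp7 by 0.09 and 0.17, and Sap30 differed by -0.15 and -0.04. Of 9 Myc cofactors none passed, with a median of 0.25 beside 0.02 over all genes. The acetyltransferase gene Kat2a was higher by 0.69 and 0.59 (adjusted p = 0.130), its scaffold gene Trrap by 0.52 and 0.51 (adjusted p = 0.263), Kat5 by 0.37 and 0.56 (adjusted p = 0.330) and the remodeller gene Ep400 by 0.20 and 0.30 (adjusted p = 0.682), the value of day 6 standing before that of day 4.

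Of 9 genes that set the stability of the Myc protein none passed with 4OHT (3.22% of all genes did). Their median was 0.33, beside 0.02 over all genes. Skp2, a ubiquitin ligase subunit, was higher by 0.24 at day 6 and 1.16 at day 4 (limma, adjusted p = 0.150). The kinase gene Gsk3b, whose product marks Myc for degradation, was higher by 0.80 and 0.39 (adjusted p = 0.181), and Fbxw7, the ligase subunit that reads that mark, by 0.79 and 0.24 (adjusted p = 0.297). Stub1, another ubiquitin ligase, was higher by 0.26 and 0.39 (adjusted p = 0.548). By day, 3 of the 9 fell, 3 rose and 3 did not pass (18.8% of all genes fell and 35.1% rose). Those that fell were the deubiquitinase gene Usp36 (-1.99), Gsk3b (-1.30) and Fbxw7 (-0.91). Those that rose were Cip2a, which encodes an inhibitor of a phosphatase that acts on Myc (1.67), the kinase gene Aurka (1.07) and the ubiquitin ligase gene Huwe1 (0.91). After quantile normalization 4 fell and 2 rose (24.0% and 20.3% of all genes): Usp36 (-2.49), Gsk3b (-1.87), Fbxw7 (-1.44) and Skp2 (-0.74) fell, Cip2a (1.52) and Aurka (0.61) rose, and Huwe1 did not pass (0.32). Usp36, Cip2a, Aurka and Huwe1 were named after their values were seen.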

How the data were processed

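The deposited values are linear intensities, 1 per probe set and array, on 4 arrays. Per the labels' protocols, 100 ng of total RNA per array was labelled with biotin by a kit that primes at 3' ends. Background correction, normalization and summarisation: not given in the sources used here. All 4 value columns were used.

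Of 45101 probe sets, 34945 name 1 gene and 932 several; 34741 matched a current gene record and no symbol changed. Values were moved to log2(intensity + 16). Each gene was given its brightest probe set over the 4 arrays, and 13192 genes passed the level filter. The additive model (terms 4OHT and day; 1 residual and 15.2 prior degrees of freedom) was fitted by limma 3.58.1, using lmFit and eBayes under R 4.3.3, with Benjamini-Hochberg adjustment over all genes tested and a threshold of 0.05; "rose" and "fell" mean past it. It was tested on simulated data with the same 4OHT effect on both days. There it called 83 of 100 genes changed by 1 log2 unit and 100 of 100 changed by 2. It also called 30 of 12992 unchanged genes. The Mxd, Max and Mnt promoters come from RefSeq. Single-array contrasts carry no p-value and were called at 2-fold. Tables and plots used Python 3.11.15, pandas 2.3.3, numpy 2.4.6 and matplotlib 3.10.9.

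The members and lists were chosen with earlier results of these data known. Of each pathway list, up to 4 genes were named that moved one way on both days, ranked by the smaller of their 4OHT differences. Some genes of the pathway lists are not reported here. Alternatives were pseudocounts of 1 and 64, 2 scalings, 3 level filters, other probe set rules, and thresholds of 1.5-fold and 3-fold.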

Additional observations from a re-analysis of the deposited data

Results flagged for a closer look

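Differences with 4OHT that ran in opposite directions on the 2 days were found for 12 of the 18 probe sets past the level filter. The difference between the days was not tested, since 1 array a group leaves no residual for it. With 1 array in each group, opposite signs are common, and 43.0% of all 23044 probe sets had them. On the log2(intensity + 16) scale the 4OHT difference at day 6 minus that at day 4 was 0.74 for Myc, and 1.08 and 0.38 for 1425923_at and 1425922_a_at of Mycn. It was -0.93 for Max, 0.19 for 1422002_at of Mxd1 and 0.95 for 1422970_at of Mxd3. For Mxd4 it was -0.60 (1434378_a_at), -0.45 (1434379_at), -0.67 (1422574_at) and 0.39 (1422575_at). It was -0.96 for 1425732_a_at of Mxi1 and -0.15 for 1418193_at of Mnt. Among the brightest probe sets only Mycn passed 2-fold, and 4.03% of all genes did.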

How the results depend on the processing

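No member passed the 4OHT test under any of the 10 alternatives run. By day, 4 members passed; 2 passed with a pseudocount of 1 and 2 when a gene's probe sets were averaged, and Myc and Mxd3 passed in each of the 10 gene-level settings. At day 4 no member was 2-fold different with 4OHT, against 1 with a pseudocount of 1, 1 after quantile normalization and 2 at 1.5-fold. For day 6 against day 4 the count was 1 in 4OHT organoids, against 2 with a pseudocount of 1, 4 after quantile normalization and 3 at 1.5-fold, and it was 3 in untreated organoids, against 1 with a pseudocount of 64 and 0 at 3-fold. The 4OHT effect differed 2-fold between the days for 1 member, for 2 with a pseudocount of 1 and for 0 with a pseudocount of 64 or with averaged probe sets. E-boxes were found for 3 members, and for 5 with CANNTG, which 72.3% of all promoters hold. Signs turned for the 4OHT effect of Max (0.0125, quantile normalization) and Mxd3 (-0.138, averaged probe sets), and for the day effect of Mxd1 (-0.259, quantile normalization, and -0.113, averaged probe sets) and Mxi1 (-0.0261, quantile normalization); the cause was not tested. Over all genes the 4OHT test called 425 as reported, 237 after quantile normalization, 7 up and 40 down with a pseudocount of 1, 62 up and 183 down with the level filter on the mean, and none without a level filter or with a pseudocount of 64, where 2050 and 1644 genes had an unadjusted p under 0.05. By day 4631 genes rose and 2474 fell as deposited, against 2674 and 3163 after quantile normalization and 5175 and 1756 after median centring. No paired analysis by replicate was possible because each group has 1 array and the labels give no replicate numbers; the test with day as a term already compares 4OHT with untreated organoids within each day. The number of arrays limits the precision, and dim probe sets such as those of Max and Mxd4 lie near the level filter.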
